A study of Mus musculus with 15 samples.

Results

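The genes described here were 9 transcripts of the liver's glucocorticoid system, taken by name from a table of 37991 gene identifiers. They were the glucocorticoid receptor gene Nr3c1, the enzyme gene Hsd11b1, the hormone-responsive genes Fkbp5, Tsc22d3, Sgk1, Tat and Zbtb16, and the metallothionein genes Mt1 and Mt2. The rule that takes them uses names and no expression value, though the list was drawn up with earlier results of these data known, and all 9 passed the filter on low counts that left 14258 genes tested. Expression was measured by poly(A) RNA sequencing of whole liver from female C57BL/6 mice kept on chow, in 3 groups of 5 libraries. The young WT group was wild type and aged 90 days. Both old groups were aged 600 days, the old WT group being wild type and the old KO group carrying a deletion of Rps6kb1, the gene of ribosomal S6 kinase 1, in every tissue. WT and KO animals came from heterozygous breeding. No young KO group was among these samples, so genotype could be compared at 600 days alone. The study addressed how loss of this kinase alters the ageing liver. The hour of the day and the feeding state at collection are not given in the sources used here.

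Glucocorticoids (corticosterone in mice) circulate largely bound to corticosteroid-binding globulin, enter hepatocytes and bind the glucocorticoid receptor, which is held in the cytosol by heat shock proteins and immunophilins until hormone binds. The receptor then moves to the nucleus, binds glucocorticoid response elements in DNA and induces enzymes of amino acid breakdown and glucose production, along with regulators that dampen its own signal. In liver, the enzyme encoded by Hsd11b1 regenerates active corticosterone from its inactive keto form, which adds to the hormone delivered by blood. Metallothioneins are small cysteine-rich proteins that bind zinc and copper. Their genes respond to zinc through the metal-responsive factor MTF1, and to glucocorticoids and inflammatory cytokines.

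The promoter sequences of Mt1, Mt2 and Sgk1 are shown because the metallothionein pair moved together across livers and because Sgk1 and Mt1 were the members whose windows held a match to the full glucocorticoid element. Sequences are the 250 bases before the RefSeq start (GRCm38.p6, plus strand, 5′ to 3′), and capitals mark the matches. In Mt1 (chr8:94178839-94179088) the capitals are a glucocorticoid element and a metal element. In Mt2 (chr8:94172368-94172617) they are 3 metal elements. In Sgk1 (chr10:21993640-21993889, which belongs to 1 of its 6 listed starts) they are a glucocorticoid element.
Mt1: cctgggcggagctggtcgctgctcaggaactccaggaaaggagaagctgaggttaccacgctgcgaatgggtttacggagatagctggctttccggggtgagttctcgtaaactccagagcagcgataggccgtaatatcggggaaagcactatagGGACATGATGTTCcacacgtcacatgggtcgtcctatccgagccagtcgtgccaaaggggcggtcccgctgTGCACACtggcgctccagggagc
Mt2: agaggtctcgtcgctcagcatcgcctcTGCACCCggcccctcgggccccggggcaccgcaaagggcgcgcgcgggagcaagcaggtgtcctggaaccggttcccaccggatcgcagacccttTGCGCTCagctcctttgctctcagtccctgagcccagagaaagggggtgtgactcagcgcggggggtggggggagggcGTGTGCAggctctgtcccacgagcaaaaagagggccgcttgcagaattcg
Sgk1: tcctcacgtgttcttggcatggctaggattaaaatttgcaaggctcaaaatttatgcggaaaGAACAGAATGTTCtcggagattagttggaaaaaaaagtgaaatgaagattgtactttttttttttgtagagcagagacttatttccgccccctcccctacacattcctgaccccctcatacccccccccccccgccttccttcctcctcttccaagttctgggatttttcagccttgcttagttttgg

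Motifs were searched on both strands of windows running from 250 bases before to 50 bases after each start. The metal element was TGCGCNC or TGCACNC, the full glucocorticoid element GNACA followed after 3 bases by TGTNC, and the short glucocorticoid element AGAACA, which can overlap the full one. In these 300 bases Mt2 held 4 metal elements and Mt1 held 3, against 0.518% of 32817 mouse promoters with at least 4 and 1.97% with at least 3. At least 1 metal element was present in 25.7% of promoters, so the match in the window of Hsd11b1 and in that of another Sgk1 start is a common feature. The full glucocorticoid element was present in 0.475% of promoters. It lay 94 to 82 bases before the start of Mt1 (GGACATGATGTTC) and 188 to 176 bases before the Sgk1 start (GAACAGAATGTTC), where 2 of the 3 short elements found in that window overlapped it. Neither Fkbp5 nor Tat had a match to any of the motifs in this window, and 1 of the 3 starts of Tsc22d3 had a short element, as had 19% of promoters. A match in letters is a description of the window and not a binding site. Promoter windows were searched for 7 of the 9 genes, all but Nr3c1 and Zbtb16.

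The genes lie on 7 chromosomes of mm9, the build of the counts. Mt2 (chr8:96696518-96697467) and Mt1 (chr8:96702989-96704225) are neighbours on the plus strand of chromosome 8, with 5521 bases between them, and Tat (chr8:112514337-112523703) lies on the same strand further along. Hsd11b1 is at chr1:195047824-195090248, Sgk1 at chr10:21601990-21719709, Fkbp5 at chr17:28536040-28654469, Zbtb16 at chr9:48462416-48644050 and Tsc22d3 at chrX:137074067-137135198. Nr3c1 is on chromosome 18. All are protein-coding. Of overlapping genes on the opposite strand, those that overlap Hsd11b1 had 0 to 9 counts and the 7SK copy that overlaps Fkbp5 had 2 to 33, far below the counts of either member.

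Library depth ran from 21801754 to 38065359 counts among young WT mice, from 27063911 to 31990482 among old WT mice and from 21984658 to 27923739 among old KO mice. Rps6kb1 stood at 33.3 to 41.4 CPM (counts scaled to the TMM-corrected library size) in the livers of young WT mice and at 34.6 to 45.4 CPM in those of old WT mice, and the old KO range of 15.2 to 20.8 CPM overlapped neither. Summed hepatocyte markers were at 83287 to 147785 CPM over all 15 libraries, with no marker at 0. Of these 8 markers, 6 were lower with age (2 called lower and 1 higher), where 18.8% of all genes tested were called. In old KO against old WT livers 8 were higher (none called), where 0.533% of all genes tested were called. The library of young WT mouse 6, the shallowest of the 15, was at an end of its group's range for several genes described here. Within its group it was the lowest for Fkbp5, Tat, Mt1, Mt2 and Hsd11b1 and the highest for Nr3c1. By Dixon's ratio, used further below, it was far from the others for Hsd11b1 alone. Young WT mouse 1 was likewise the highest of its group for Fkbp5, Mt1, Mt2 and Zbtb16. It was the lowest for Nr3c1, Tsc22d3 and Sgk1. Results that rest on young WT mouse 6 are given with and without that library.

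Across the 9 genes, Hsd11b1 and Nr3c1 were higher in old than in young WT livers by the edgeR test with an adjusted p under 0.05, none differed between old KO and old WT livers by that test, and the same 2 passed it between old KO and young WT livers. The count of 2 of 9 with age stands beside 18.8% of all genes tested, the count of 0 with genotype beside 0.533%, and the count of 2 between old KO and young WT beside 23.3%. Both genes called with age were higher, where 9.92% of all genes were called higher and 8.91% lower, and both called between old KO and young WT livers were higher too, where 12% were called higher and 11.3% lower. The share of these genes that passed was thus near the background of all genes. None of the 9 had groups free of overlap with age or with genotype, against 11.4% and 3.2% of all genes, and 1 had between old KO and young WT livers, against 13.9%. At an unadjusted p under 0.05 the counts were 5 of 9 with age, 1 with genotype and 2 between old KO and young WT livers, against 33%, 11.6% and 36.8% of all genes tested. The median log2 fold change of the 9 genes was -0.68 with age and 0.05 with genotype, and over all genes tested it was 0.01 and 0.00. DESeq2 made 4 calls with age, where it called 18.6% of 17196 genes, and none with genotype, where it called 2.14% of 14424.

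Without young WT mouse 6 the count with age went from 2 to 6 of 9, while the share of all genes passing went from 18.8% to 22.8% (3284 of 14412). The added genes were Fkbp5, Tat, Mt1 and Zbtb16, all of them lower in old WT livers. Mouse 6 was the lowest young WT liver for Fkbp5, Tat and Mt1, so leaving it out widens their differences with age by its choice. The rise in the count follows in part from that choice. Without young WT mouse 1, the highest young WT liver for Fkbp5 and Mt1, neither passed. Their log2 fold changes with age were then -0.65 (adjusted p = 0.235) and -0.58 (adjusted p = 0.481). The count with genotype was again 0 of 9, and that between old KO and young WT livers was 3 of 9, with Mt1 added, where 26.6% of all genes passed. Leaving out young WT mouse 3, the highest for Tat and Sgk1 in its group and the lowest for Zbtb16, gave 4 calls with age, where 15.6% of all genes passed.

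**Figure D1:**
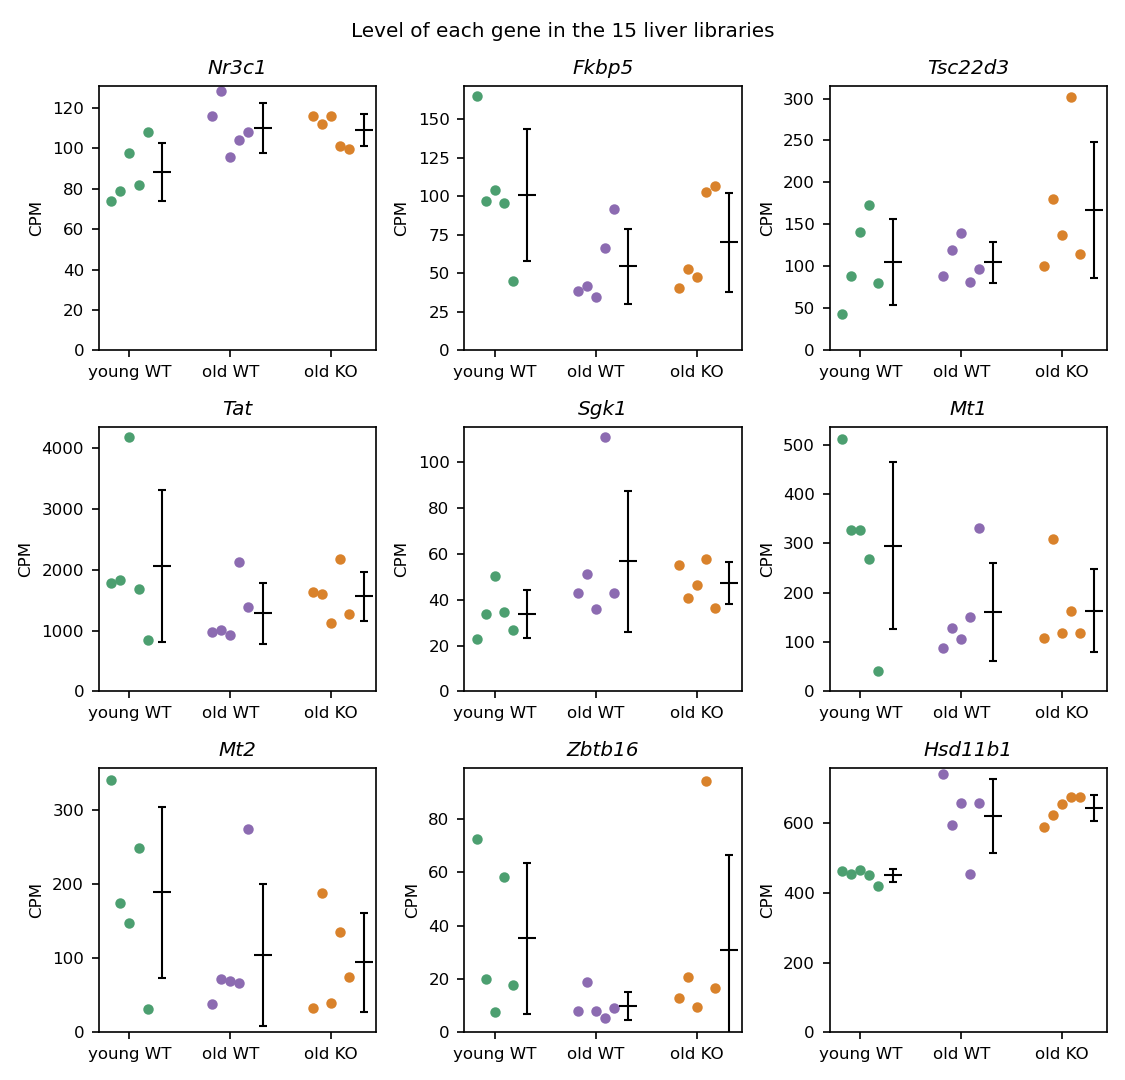
Level of each of the 9 genes in CPM (vertical axis, from 0) in the 5 young WT, 5 old WT and 5 old KO livers. Points are libraries, the bars beside them are the mean and SD (the bar of Zbtb16 in old KO livers is cut at 0), and the young WT livers of Hsd11b1 sit between 418 and 464 CPM, below 4 of the 5 old WT and all 5 old KO livers.

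Hsd11b1, the enzyme that regenerates active hormone, showed the firmest difference. Its level was 463, 454, 464, 452 and 418 CPM in young WT livers, 741, 593, 656, 455 and 657 CPM in old WT livers and 588, 623, 655, 674 and 673 CPM in old KO livers. The old KO livers were all above the young WT livers, and 4 of the 5 old WT livers were too, with old WT mouse 7 at the young level. The mean rose from 450 ± 18.6 CPM (SD, n = 5) to 621 ± 106 CPM (n = 5) in old WT livers, a 1.38-fold difference (log2 fold change 0.46, SE 0.106, adjusted p = 0.00743). In old KO livers it was 643 ± 36.9 CPM (n = 5), 1.43-fold above young WT (log2 fold change 0.51, adjusted p = 0.00318) and without overlap, as were 13.9% of all genes tested in that comparison. The log2 fold change between the old genotypes was 0.05 (SE 0.105, adjusted p = 0.913). The rise with age kept its call when any 1 of the 15 libraries was left out, with log2 fold changes of 0.39 to 0.56.

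Other genes that govern how much steroid reaches the receptor were described through a list of 7, of which 6 were tested. With age 3 rose, none fell and 3 did not pass, where 18.8% of all genes tested passed. The median log2 fold change with age was 0.46. With genotype none passed, at a median of -0.02. Against young WT livers, where 23.3% of all genes tested passed, 3 rose in old KO livers. In the same comparison Srd5a1, a steroid reductase, fell by 0.47 on the log2 scale (adjusted p = 0.0256).

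Serpina6, which encodes corticosteroid-binding globulin, was at 83.3, 60.8, 107, 112 and 138 CPM in young WT livers. It was at 462, 426, 474, 204 and 522 CPM in old WT livers and at 341, 294, 475, 345 and 156 CPM in old KO livers. Every old liver of either genotype was above every young one. With age the log2 fold change was 2.06 (SE 0.292, adjusted p = 0.000499), from 100 ± 29.5 CPM to 417 ± 124 CPM, and old KO livers were at 322 ± 115 CPM (SD, n = 5 each). With genotype it was -0.37 (SE 0.281, adjusted p = 0.664). Akr1c14, a hydroxysteroid dehydrogenase, also rose without overlap (log2 fold change 0.75, adjusted p = 0.00791), and Akr1d1, a reductase of steroid hormones and bile acid precursors, rose by 0.42 (adjusted p = 0.0431). H6pd, which supplies the cofactor that lets the Hsd11b1 enzyme act as a reductase, was at 367 ± 61.9 CPM in young WT and 399 ± 40.2 CPM in old WT livers (SD, n = 5 each, adjusted p = 0.468). Hsd11b2, whose enzyme runs the reaction the other way, was listed at no more than 0.0368 CPM in any library and did not pass the filter.

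Nr3c1, the receptor itself, was higher in old livers by a smaller margin. It stood at 74.1, 78.6, 97.5, 81.6 and 108 CPM in young WT livers, at 116, 128, 95.7, 104 and 108 CPM in old WT livers and at 116, 112, 116, 101 and 99.7 CPM in old KO livers. The groups overlapped, since young WT mice 3 and 6 reached the old range. The mean rose from 88.1 ± 14.4 CPM to 110 ± 12.3 CPM (SD, n = 5 each), 1.25-fold (log2 fold change 0.32, SE 0.107, adjusted p = 0.0438). In old KO livers it was 109 ± 8.05 CPM (n = 5), 1.24-fold above young WT livers (log2 fold change 0.31, adjusted p = 0.0483). Between the old genotypes the log2 fold change was -0.02 (SE 0.107, adjusted p = 0.974). The call with age lay close to the threshold. It held in 7 of the 15 fits that left out a library, with adjusted p between 0.00804 (without young WT mouse 6, log2 fold change 0.42) and 0.114, and in 5 of 8 other settings, with adjusted p between 0.0358 and 0.0836. The call between old KO and young WT livers held in 4 of these 15 fits (adjusted p between 0.0097 and 0.123) and in 2 of 8 other settings (between 0.0386 and 0.0801).

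The receptor's chaperones, immunophilins and cofactors formed a list of 18, all tested. With age 2 rose, 1 fell and 15 did not pass, where 18.8% of all genes tested passed. The median log2 fold change with age was -0.10, and with genotype none passed. None of the 18 passed with age when young WT mouse 1, 2 or 4, or old WT mouse 1 or 10, was left out. Fkbp4, an immunophilin that helps carry the receptor to the nucleus, rose from 95.8 ± 22.7 CPM to 136 ± 24.8 CPM (SD, n = 5 each; log2 fold change 0.50, adjusted p = 0.0396) and stood at 164 ± 23.4 CPM in old KO livers (0.77 against young WT, adjusted p = 0.00347). Fkbp5, described next, encodes the immunophilin that competes with it. Bag1, a co-chaperone, rose by 0.22 without overlap (adjusted p = 0.0277). In old KO against young WT livers 4 rose and 3 fell, where 23.3% of all genes tested passed. Among those that rose were Dnajb1 (log2 fold change 0.70, adjusted p = 0.0479) and Ptges3, the p23 co-chaperone (0.35, adjusted p = 0.0401).

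**Figure D2:**
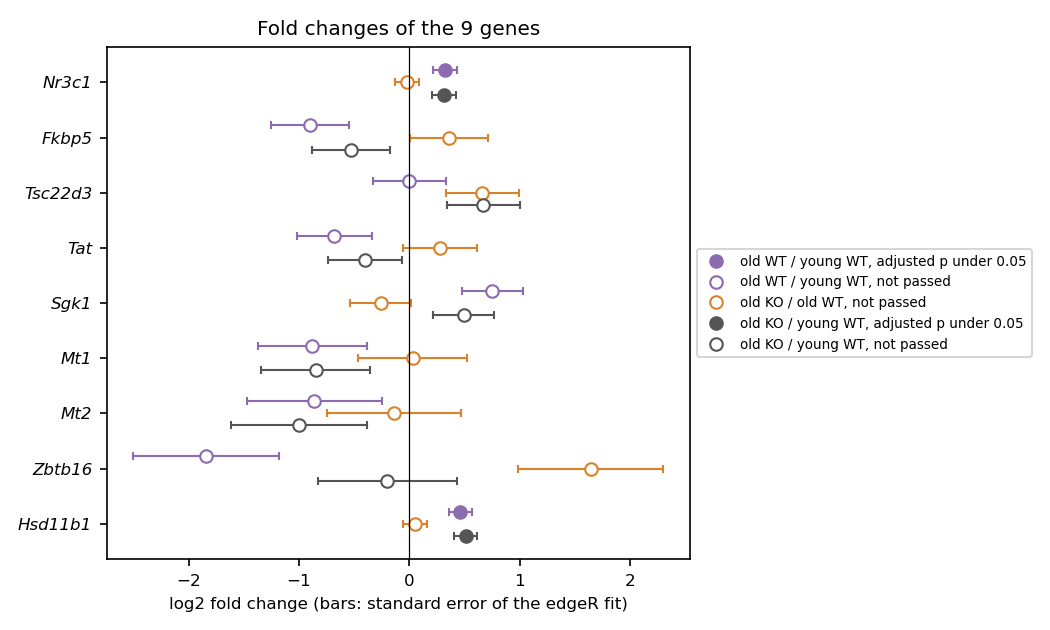
Log2 fold change (horizontal axis) of each gene for old WT against young WT, old KO against old WT and old KO against young WT livers, with the SE of the edgeR fit as bars and filled points for an adjusted p under 0.05. Nr3c1 and Hsd11b1 have the shortest bars (SE of 0.105 to 0.107) and are the genes with filled points, whereas Zbtb16 is farthest from 0 with age (-1.84) and with genotype (1.64) but has an SE of 0.66.

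The hormone-responsive genes other than Tsc22d3 had larger log2 fold changes with age than the receptor, with either sign, and larger spread. Fkbp5, an induced brake on the receptor, was at 165, 97.2, 104, 95.7 and 45.2 CPM in young WT livers, at 38.6, 42, 34.4, 66.2 and 91.7 CPM in old WT livers and at 40.8, 53, 47.4, 103 and 107 CPM in old KO livers. Of the young WT livers 4 were above every old WT liver, and the other, mouse 6, was within the old range. Means were 101 ± 42.7 CPM, 54.6 ± 24.2 CPM and 70.2 ± 32 CPM (SD, n = 5 each). The log2 fold change with age was -0.90 (SE 0.352, adjusted p = 0.0852), and without young WT mouse 6 it was -1.08 and passed (adjusted p = 0.031). It also passed without old WT mouse 10 (-1.17, adjusted p = 0.0359), and without young WT mouse 1, the highest liver, it was -0.65 (adjusted p = 0.235). With genotype it was 0.36 (SE 0.351, adjusted p = 0.761).

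Tat, tyrosine aminotransferase, is a classical induced enzyme of amino acid breakdown. Its level was 1780, 1828, 4181, 1687 and 838 CPM in young WT livers, 971, 1006, 935, 2122 and 1393 CPM in old WT livers and 1632, 1599, 1132, 2186 and 1276 CPM in old KO livers. Young WT livers held both the highest and the lowest value of the 15. With age its log2 fold change was -0.68 (SE 0.337, adjusted p = 0.17), and -0.88 without young WT mouse 6 (adjusted p = 0.0497). Without young WT mouse 3, the highest liver, it was -0.24 (adjusted p = 0.583). With genotype it was 0.28 (SE 0.336, adjusted p = 0.816).

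Sgk1, a kinase induced by serum and glucocorticoids that regulates ion channels and transporters, was at 23, 33.7, 50.4, 34.8 and 26.7 CPM in young WT livers. It was at 42.9, 51.3, 36, 111 and 42.8 CPM in old WT livers and at 55.3, 40.9, 46.3, 57.6 and 36.6 CPM in old KO livers. All 10 old livers were above the young WT median, and old WT mouse 7 was far above the rest of its group. The log2 fold change with age was 0.75 (SE 0.275, adjusted p = 0.0669), opposite in sign to those of Fkbp5, Tat and Zbtb16. It passed by DESeq2 (0.74, adjusted p = 0.0381) and in 2 of the 15 fits that left out a library, but without old WT mouse 7 it was 0.37 (adjusted p = 0.202). With genotype it was -0.26 (SE 0.274, adjusted p = 0.786), and 0.13 without old WT mouse 7.

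Tsc22d3 encodes GILZ, an induced anti-inflammatory transcriptional regulator. It was at 43.9, 89, 141, 173 and 80.4 CPM in young WT livers, at 88.5, 120, 140, 81.2 and 97.4 CPM in old WT livers and at 100, 180, 137, 302 and 115 CPM in old KO livers. The young and old WT means were 105 ± 51 CPM and 105 ± 24.3 CPM (SD, n = 5 each), with a log2 fold change of 0.00 (SE 0.331, adjusted p = 0.998). In old KO livers the mean was 167 ± 81.3 CPM (n = 5), with all 5 above the old WT median. The log2 fold change with genotype was 0.66 (SE 0.332, adjusted p = 0.462), and 0.33 without old KO mouse 5 (adjusted p = 0.818).

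Zbtb16, which encodes the zinc finger repressor PLZF, is strongly induced by glucocorticoids in many cell types. Its level was 72.2, 20.1, 7.5, 58.2 and 17.8 CPM in young WT livers, 8.06, 18.7, 8.05, 5.42 and 9.08 CPM in old WT livers and 13, 20.7, 9.51, 94 and 16.8 CPM in old KO livers. All 5 old WT livers were below the young WT median and all 5 old KO livers were above the old WT median, but the ranges overlapped in both comparisons. The log2 fold change with age was -1.84 (SE 0.66, adjusted p = 0.0621), with values of -2.19 to -1.40 and 3 of 15 calls when a library was left out. In 8 other settings it was -2.42 to -1.54 and passed in 2 (adjusted p between 0.0397 and 0.124). With genotype it was 1.64 (SE 0.66, unadjusted p = 0.024, adjusted p = 0.326), and 0.60 without old KO mouse 5 (adjusted p = 0.802). Because the old WT livers enter the age comparison and the genotype comparison alike, opposite signs in the pair are not separate observations. Old KO and young WT means, which share no library with each other, were 30.8 ± 35.6 CPM and 35.2 ± 28.3 CPM (SD, n = 5 each; log2 fold change -0.20, adjusted p = 0.847).

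The metallothionein genes had the widest ranges of the 9 within young WT livers. Mt1 was at 512, 326, 326, 269 and 40.7 CPM in young WT livers, at 87, 128, 106, 150 and 332 CPM in old WT livers and at 109, 309, 118, 162 and 119 CPM in old KO livers. Mt2 was at 340, 175, 148, 249 and 31.6 CPM in young WT livers, at 38.1, 72.3, 69.6, 66.2 and 274 CPM in old WT livers and at 33.3, 188, 39.7, 136 and 75.2 CPM in old KO livers. Young WT mouse 6 was the lowest of all 15 livers for each gene, 12.6-fold below the highest young WT liver for Mt1 and 10.8-fold for Mt2. In each old group the same liver was highest for both genes, old WT mouse 10 and old KO mouse 2.

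Mean Mt1 was 295 ± 169 CPM in young WT, 161 ± 98.5 CPM in old WT and 163 ± 84.1 CPM in old KO livers (SD, n = 5 each). The log2 fold change of Mt1 with age was -0.88 (SE 0.495, adjusted p = 0.231), and without young WT mouse 6 it was -1.15 and passed (adjusted p = 0.04). Without young WT mouse 1, the highest liver, it was -0.58 (adjusted p = 0.481), and without old WT mouse 10 it was -1.32 (adjusted p = 0.0777). For Mt2 it was -0.86 (SE 0.611, adjusted p = 0.344), with values of -1.62 (without old WT mouse 10) to -0.54 (without young WT mouse 1) when a library was left out, none of which passed. With genotype the values were 0.03 for Mt1 (SE 0.492, adjusted p = 0.994) and -0.14 for Mt2 (SE 0.608, adjusted p = 0.965). Leaving out a library moved the genotype value of Mt1 between -0.35 and 0.47 and that of Mt2 between -0.56 and 0.62, so neither has a settled sign.

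**Figure D3:**
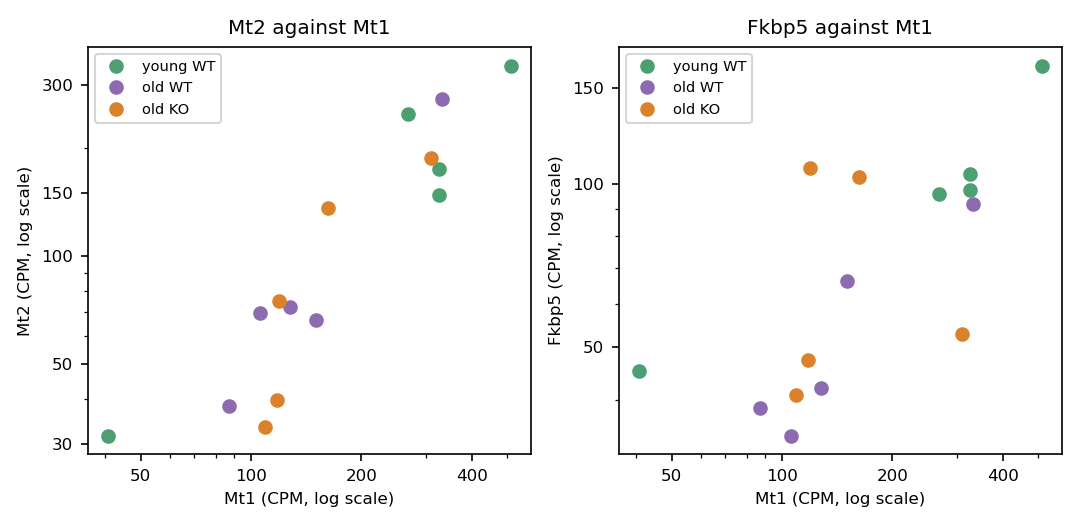
Level of Mt2 (left) and Fkbp5 (right) against Mt1 in CPM on logarithmic axes, with a point for each of the 15 livers coloured by group. Mt1 and Mt2 run together from young WT mouse 6 (40.7 and 31.6 CPM) to young WT mouse 1 (512 and 340 CPM) in all 3 groups, whereas Fkbp5 follows Mt1 more loosely in the old KO livers.

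Mt1 made up 60.4 ± 6.72% of the summed CPM of the pair in young WT, 63.6 ± 6.27% in old WT and 65.9 ± 9.52% in old KO livers (SD, n = 5 each), over a range of 52 to 76.6% in single livers, so the proportion of the pair varied among livers. The differences were 3.19 percentage points with age (exact 2-sided permutation p = 0.492), 2.24 with genotype (exact p = 0.698) and 5.44 between old KO and young WT livers (exact p = 0.317), where 5 livers against 5 allow no p below 0.00794. These shares are of reads and not per length. The genes are similar in sequence and reads could have been assigned to the wrong copy, which was not tested.

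Per kilobase of exon, Tat had the highest mean level of the 9 in each group, 858 ± 520 CPM per kilobase in young WT, 534 ± 209 in old WT and 651 ± 169 in old KO livers. Mt1 (391 ± 224) and Mt2 (340 ± 207) followed in young WT livers, then Hsd11b1 at 166 ± 6.87 CPM per kilobase. In old livers this order differed, since Hsd11b1 (229 ± 39.3 in old WT and 237 ± 13.6 in old KO) was above Mt1 (213 ± 131 and 217 ± 112) and Mt2 (187 ± 173 and 170 ± 119), by less than the SD of either metallothionein. Tsc22d3 (24.3 ± 11.8), Fkbp5 (16.1 ± 6.76) and Nr3c1 (11.9 ± 1.94 CPM per kilobase in young WT) came next with overlapping ranges. Zbtb16 was at 6.9 ± 5.54 CPM per kilobase in young WT, 1.94 ± 1.01 in old WT and 6.04 ± 6.97 in old KO livers, and Sgk1 was at 6.87 ± 2.15, 11.6 ± 6.24 and 9.66 ± 1.84 (SD, n = 5 for each value).

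The 9 genes fell apart in how much they varied among livers of the same group. The within-group SD of log2 CPM was 1.16 for Mt2, 1.13 for Zbtb16 and 0.99 for Mt1, at the percentiles 99.5, 99.4 and 99 of all 14258 genes tested. It was 0.64 for Fkbp5, 0.60 for Tsc22d3 and 0.59 for Tat, at the percentiles 93.6, 92.1 and 91.8, and 0.47 for Sgk1 at the percentile 83.8. Nr3c1 (0.17) and Hsd11b1 (0.16) were below the all-gene median of 0.23. The genes that were called with age were therefore the 2 of the 9 with the smallest spread.

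Whether the genes varied together from liver to liver was asked after taking off each group's mean, over 36 pairs and 15 libraries, with permutation of libraries within groups and adjustment over the 36 pairs. Of the pairs 24 were positive and 12 negative, and 1 passed. Mt1 and Mt2 were correlated at Pearson r = 0.91 (permutation p = 4e-05, adjusted p = 0.00144) and Spearman rho = 0.92 (p = 3e-05, adjusted p = 0.00108). Without young WT mouse 6 and old WT mouse 10, the livers farthest from the median of Mt1, r was 0.85.

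Fkbp5 was correlated with Mt2 at r = 0.76 (permutation p = 0.00649, adjusted p = 0.0779, rho = 0.73, p = 0.0069, adjusted p = 0.0828) and with Mt1 at r = 0.69 (p = 0.0137, adjusted p = 0.123, rho = 0.75, p = 0.00399, adjusted p = 0.0718). Neither passed. Without young WT mouse 6 and old WT mouse 10, r was 0.58 and 0.46. Tat and Sgk1 were correlated at r = 0.73 (permutation p = 0.00576, adjusted p = 0.0779, rho = 0.65, p = 0.0178, adjusted p = 0.159) and did not pass. Without young WT mice 3 and 6, the livers farthest from the median of Tat, r was 0.75. Old WT mouse 7, the highest of its group for both genes, was kept in that check. It lay 0.80 (Tat) and 1.09 (Sgk1) above its group mean on the log2 scale, and r without it was not computed. In the 10 WT livers alone, 2 pairs passed, Fkbp5 with Mt1 (r = 0.92, adjusted p = 0.0252) and Mt1 with Mt2 (r = 0.94, adjusted p = 0.0482). In the old KO livers the highest Fkbp5 values, in mice 5 and 6, went with 162 and 119 CPM of Mt1.

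The receptor gene had negative values with its responsive genes Fkbp5 (r = -0.62, permutation p = 0.0227, adjusted p = 0.163, rho = -0.50, p = 0.0743, adjusted p = 0.303) and Mt2 (r = -0.60, p = 0.0354, adjusted p = 0.213, rho = -0.49, p = 0.0757, adjusted p = 0.303). Neither passed, and without young WT mouse 6 and old WT mouse 4 they were -0.46 and -0.42. For Tsc22d3 the largest values were r = 0.25 with Tat (permutation p = 0.496, adjusted p = 0.793) and rho = 0.41 with Mt2 (p = 0.167, adjusted p = 0.447), and none passed.

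**Figure D4:**
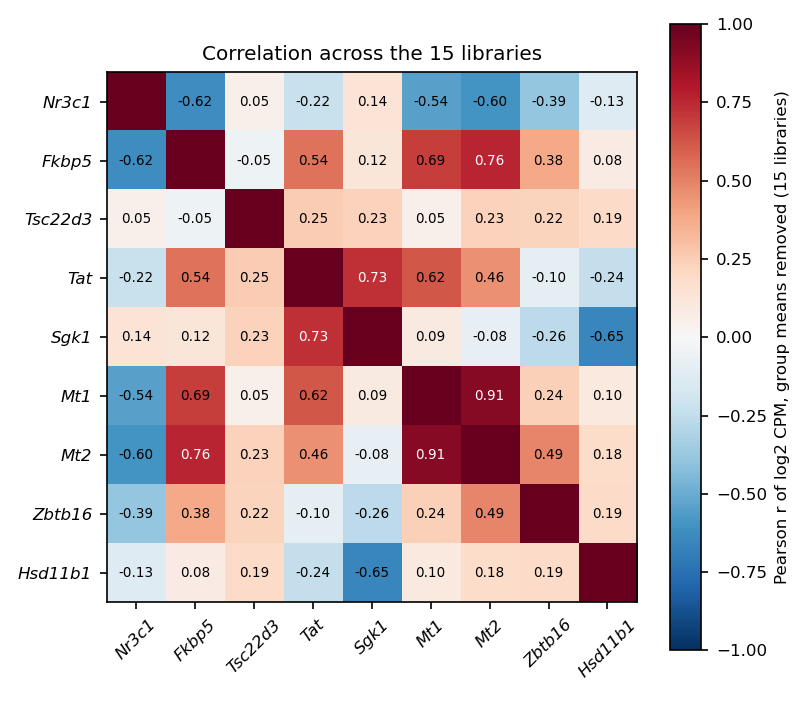
Pearson r of log2 CPM between each pair of the 9 genes over 15 livers, group means removed, on a colour scale from -1 (blue) to 1 (red). The pair of Mt1 and Mt2 (0.91) is the highest, Fkbp5 with Mt2 (0.76) and Tat with Sgk1 (0.73) follow, and Nr3c1 is negative with Fkbp5 (-0.62) and Mt2 (-0.60).

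Over all 15 livers, without removal of group means and as a description, the genes whose log2 CPM followed Nr3c1 most closely were Fgd4 (r = 0.94), Mob1a (0.94) and Uevld (0.93). Those closest to Hsd11b1 were Aes (0.96), Cradd (0.95) and Tmem28 (0.94). The livers differ in age and in library depth, which all genes of a library share.

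Another 20 genes known to respond to glucocorticoids in liver or other tissues were all tested. With age 3 fell, none rose and 17 did not pass, where 18.8% of all genes tested passed. The median log2 fold change was -0.27, against 0.01 over all genes. Lpin1, a phosphatidate phosphatase and coactivator, fell by 2.33 on the log2 scale (SE 0.539, adjusted p = 0.0081), from 209 ± 136 CPM to 41.7 ± 12.4 CPM. Tdo2, the first enzyme of hepatic tryptophan breakdown, fell by 0.91 (adjusted p = 0.0172), from 2409 ± 652 CPM to 1285 ± 455 CPM, and Ppargc1a, a coactivator of gluconeogenic genes, fell by 0.98 (adjusted p = 0.0443). Young and old WT livers overlapped for each of the 3.

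With genotype none of the 20 passed, at a median of 0.11. In old KO against young WT livers Tdo2 fell by 0.88 (adjusted p = 0.0161), and Anxa1, an anti-inflammatory phospholipid-binding protein, rose by 0.69 (adjusted p = 0.0171). The gluconeogenic gene Pck1 was at 3169 ± 1177 CPM in young WT, 2996 ± 1066 CPM in old WT and 2483 ± 879 CPM in old KO livers (SD, n = 5 each), and passed in no comparison. Per1, a clock gene with direct hormone induction, was at 41 ± 25.4 CPM, 28.7 ± 9.23 CPM and 32 ± 16.1 CPM, and did not pass with age (adjusted p = 0.397) or genotype (adjusted p = 0.93).

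Zinc handling was followed through 18 genes, of which 16 were tested. With age 1 rose and none fell, at a median of 0.00, where 18.8% of all genes tested passed. With genotype none passed. The gene that rose was Slc39a11, a zinc importer (log2 fold change 0.33, adjusted p = 0.0426). Mtf1, the metal-responsive activator of the metallothioneins, was at 16.3 ± 3.29 CPM in young WT, 16.2 ± 1.7 CPM in old WT and 17.3 ± 2.15 CPM in old KO livers (SD, n = 5 each). Slc30a1, the zinc exporter that MTF1 also controls, was at 47.7 ± 2.66 CPM, 53 ± 9.03 CPM and 47.6 ± 9 CPM, with an adjusted p of 0.428 with age. Slc30a5, a Golgi zinc transporter, rose by 0.27 between young WT and old KO livers (adjusted p = 0.0256). Mt3 and Mt4, the metallothionein genes of other tissues, did not pass the filter.

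**Figure D5:**
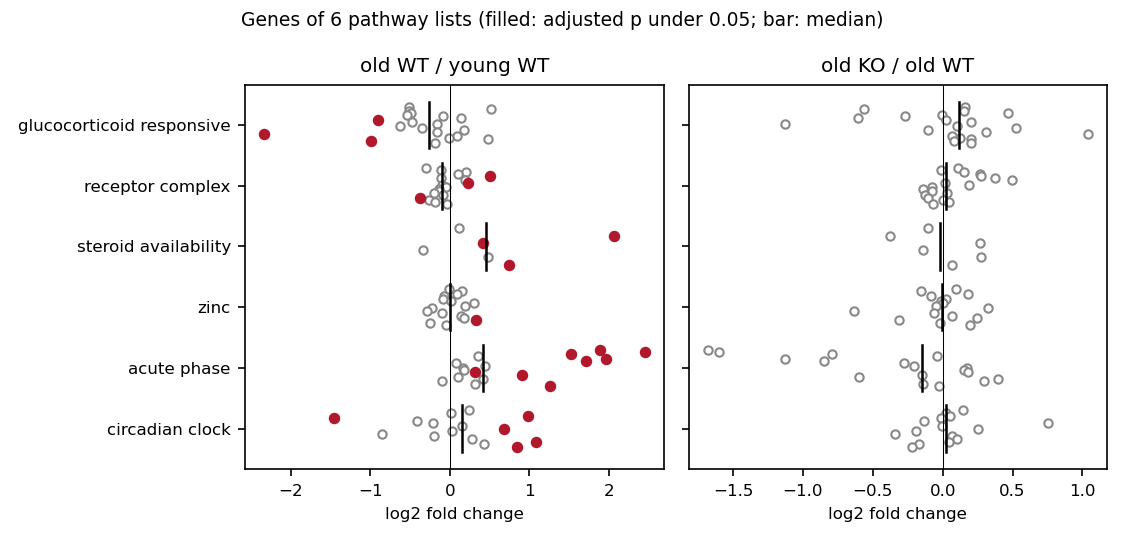
Log2 fold change of each tested gene of the 6 lists for old WT against young WT livers (left) and old KO against old WT livers (right), with a bar at each list's median and filled points for an adjusted p under 0.05. With age 8 acute phase genes and 3 steroid availability genes are filled on the higher side and 3 glucocorticoid-responsive genes on the lower side, and with genotype no point is filled.

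Acute phase genes, which cytokines induce in hepatocytes, often with glucocorticoids, formed a list of 17. With age 8 rose, none fell and 9 did not pass, at a median of 0.42, where 18.8% of all genes tested passed. With genotype none passed, and 12 of 17 were lower, at a median of -0.15. Without old WT mouse 10 the median with genotype was -0.01. Saa2 (log2 fold change 2.45, adjusted p = 0.0172), Orm2 (1.96, adjusted p = 0.00408), Saa1 (1.89, adjusted p = 0.041) and Lcn2 (1.71, adjusted p = 0.042) had the largest log2 fold changes, with overlapping groups. Each was highest in old WT mouse 10, which had 212 CPM of Saa1, 137 CPM of Saa2, 62.7 CPM of Orm2 and 141 CPM of Lcn2, against 15.1 to 51, 9.42 to 30, 8.25 to 26.2 and 12.1 to 63.4 CPM in the other old WT livers. Without it 3 of the 17 rose, and of these 4 genes Orm2 kept its call (1.41, adjusted p = 0.00628) while Saa2 (1.25, adjusted p = 0.0623), Saa1 (0.88, adjusted p = 0.197) and Lcn2 (0.85, adjusted p = 0.184) lost theirs. The same mouse was also the highest old WT liver for Mt1, Mt2 and Fkbp5. Against young WT livers, where 23.3% of all genes tested passed, 6 rose in old KO livers. Among them were Steap4 (1.23, adjusted p = 0.00205), Apcs (0.82), Itih4 (0.76) and the fibrinogen chain Fgg (0.50). The part of the acute phase genes in the levels of the 9 genes was not tested.

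Of 15 clock genes, 4 rose, 1 fell and 10 did not pass with age, where 18.8% of all genes passed, and none passed with genotype. Nr1d1, the nuclear receptor REV-ERB alpha, fell by 1.46 (adjusted p = 0.0368), from 33.6 ± 11.7 CPM to 12.2 ± 7.75 CPM (SD, n = 5 each). Nfil3 (1.08, adjusted p = 0.00382) and Npas2 (0.99, adjusted p = 0.00499) rose without overlap between the groups. In old KO livers Nr1d1 was at 12.1 ± 9.49 CPM and Nfil3 at 49.7 ± 7.37 CPM, against 48.1 ± 8.76 CPM in old WT livers. The part of these clock differences in the levels of the hormone-responsive genes with age was not tested.

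Markers of other cells in whole liver were summed as well. Leukocyte markers summed to 151 to 332 CPM for young WT livers, 213 to 472 CPM for old WT livers and 123 to 195 CPM for old KO livers. Of these 14 of 14 were higher with age (4 called) and 14 of 14 lower with genotype (3 called), and no marker was at 0 in any library. Over all genes tested 18.8% were called with age, 0.533% with genotype and 23.3% between old KO and young WT livers. Red blood cell markers were at 47.3 to 110 CPM, 79.7 to 164 CPM and 107 to 395 CPM, and all 5 were called higher in old KO than in young WT livers. Endothelial markers were at 164 to 306 CPM, 126 to 222 CPM and 157 to 180 CPM, with 2 of 7 called lower with age. Stellate cell markers were at 291 to 384 CPM, 225 to 352 CPM and 223 to 421 CPM, and bile duct markers at 29.7 to 51 CPM, 38.7 to 106 CPM and 38.5 to 94.7 CPM. With age 5 of 7 stellate markers were higher (1 called higher and 1 lower), and 5 of 5 bile duct markers were higher (1 called). In bulk tissue, fewer cells of a type and less RNA per cell cannot be told apart, and Tsc22d3, Zbtb16, Fkbp5 and Sgk1 are also used by blood and stromal cells. The part of these cells in the results was not tested.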

How the data were processed

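RNA sequencing of whole liver was analysed in 15 libraries grouped by the sample titles, with 5 each of young WT, old WT and old KO mice. The authors made stranded poly(A) libraries and sequenced them single-end. They processed the reads with CASAVA, mapped them to mm9 with TopHat2 (version 2.0.11 in the submitters' processing notes) and used HTSeq for counting. The deposited table holds whole read counts for each gene, neither normalized nor pooled. The annotation and strand setting of the counting are not given in the sources used here, so reads of overlapping, antisense and similar genes may be misassigned. Positions came from GENCODE M1 on NCBIM37, which is mm9, and promoter sequences from RefSeq.

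Here, counts were scaled by TMM and filtered with filterByExpr, and a quasi-likelihood model (glmQLFit, glmQLFTest, edgeR 4.0.16, R 4.3.3) was fitted to all 15 libraries over 14258 genes, with Benjamini-Hochberg adjustment over all of them and a threshold of 0.05. Unless another tool is named, an adjusted p of a gene is from this fit, and the SE is the absolute log2 fold change over the square root of F. Levels are CPM after TMM scaling. The prior count of log2 CPM was 2. Correlations used 100000 permutations within groups. Depth of 21801754 to 38065359 counts makes counting error small for the genes described. DESeq2 1.42.0 (the study's tool, in version 1.18.1), limma voom 3.58.1, other scalings and filters, a replicate block and leaving out each library were alternatives. The scripts were tested on simulated data.

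The 9 members, the pathway and marker lists (141 entries, all matched) and the tests were chosen with earlier results of these data known. Named were all 9 members, up to 4 called genes with the largest change per list and comparison, and the 3 genes most like each called member. Per1, Pck1, H6pd, Hsd11b2, Mtf1, Slc30a1, Mt3 and Mt4 were named outside this rule after their values were seen. Some list genes that the rule names are not reported here by name. Whether the labels' replicates were prepared in separate batches is not given, and p-values measure the spread between these libraries.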

Additional observations from a re-analysis of the deposited data

Results flagged for a closer look

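For each of the 9 genes and 3 groups, the highest and the lowest library were compared with the nearest other by Dixon's ratio on CPM. Of these 27 groups, 7 held a library far from the others. The chance rate of about 1 in 20 holds for normally distributed values, and whether CPM meet this was not tested. The count of 7 therefore cannot be set against that rate. Sgk1 was at 111 CPM in old WT mouse 7 and at 51.3 CPM or less in the other old WT livers. Mt1 (332 CPM) and Mt2 (274 CPM) were both far above the rest of the group in old WT mouse 10, and Mt1 was so in old KO mouse 2 (309 CPM), where Mt2 was highest as well (188 CPM) without passing. Zbtb16 was at 18.7 CPM in old WT mouse 4 and at 94 CPM in old KO mouse 5, which was also the highest old KO liver for Tsc22d3 (302 CPM). Hsd11b1 was at 418 CPM in young WT mouse 6, below the other young WT livers at 452 to 464 CPM.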

How the results depend on the processing

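The rise of Hsd11b1 with age and between young WT and old KO livers passed in all 15 fits that left out a library and in all 8 other settings (adjusted p of 0.000422 to 0.0356 and 3.97e-05 to 0.0118 over the latter). The count of members called with age was 2, and it was 1 with no filter on low counts and 1 with the replicate block, 4 by DESeq2, and 1 to 6 when a library was left out (6 without young WT mouse 6). Between old KO and young WT livers the count of 2 became 1 with RLE scaling, upper quartile scaling, no filter, at least 10 counts in every library and the 10 libraries of the contrast alone, and was 1 to 3 when a library was left out. The count of 0 with genotype was 0 in every setting. For most of these settings the share of all genes passing is not given here. A change in the count there cannot be told from a change in how many genes passed at large. The correlated pairs numbered 1, and 2 in the wild-type livers alone. Among list genes called with age, Serpina6, Akr1c14, Lpin1, Tdo2, Nfil3, Npas2 and Orm2 passed in all 15 fits that left out a library. Bag1 and Nr1d1 passed in 9 of them, Slc39a11 in 7, Fkbp4 in 6, and Akr1d1 and Ppargc1a in 5. Of those called between old KO and young WT livers, Tdo2, Anxa1, Fkbp4, Steap4, Apcs, Itih4 and Fgg passed in all 15 fits. In that comparison Slc30a5 passed in 11, Srd5a1 in 10, Ptges3 in 5 and Dnajb1 in 3.

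Some log2 fold changes that did not pass changed sign. For Tsc22d3 with age the log2 fold change was -0.00 with RLE scaling, -0.00 by DESeq2, -0.01 with the 10 libraries alone and -0.20 to 0.24 when a library was left out. With genotype, leaving out a library gave -0.07 to 0.03 for Nr3c1, -0.39 to 0.13 for Sgk1, -0.35 to 0.47 for Mt1, -0.56 to 0.62 for Mt2 and -0.05 to 0.12 for Hsd11b1. Between old KO and young WT livers it gave -0.60 to 0.03 for Tat and -1.23 to 0.24 for Zbtb16. The share of Mt1 differed by -0.447 to 5.13 points with genotype. The cause of these changes was not tested.

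With the replicate number as a block, the genotype values were 0.21 for Sgk1, 0.74 for Mt2 and -0.03 for Hsd11b1, Nr3c1 lost its calls with age (0.50, adjusted p = 0.0828) and between old KO and young WT livers (0.41, adjusted p = 0.0528) and Sgk1 between old KO and young WT livers gained one (0.66, adjusted p = 0.0319). No pairing of the libraries by number was seen. The 9 pairs of the same number correlated at -0.15 to 0.08 in their deviations from group means. Other pairs correlated at -0.27 to 0.36, and 0 of 7 libraries was closest to its own number. Whether libraries of the same number shared a batch cannot be told from this check. Depth was not limiting for these genes, whose precision rests on 5 livers a group.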
